A study of Mus musculus with 30 samples.

Results

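Pericentral hepatocytes are the liver cells that surround the central vein, where blood leaves the lobule. The 10 genes followed here mark them: Glul, Oat, Lgr5, Cyp2e1, Cyp1a2, Axin2, Tbx3, Rhbg, Slc1a2 and Lect2. They were taken as a list by gene symbol, and all 10 were found among the 51826 gene identifiers of the deposited count table. All 10 also passed the filter on low counts that left 19685 genes for testing. RNA had been sequenced from thin frozen slices of the left liver lobe of male mice, whose strain the labels spell C57BL16. One arm was exposed to 56Fe, an iron ion of the kind found in cosmic radiation, at 600 MeV/n and a dose of 0.2 Gy, and the control arm was not irradiated. Livers were collected 30, 60, 120, 270 and 360 days later, called months 1, 2, 4, 9 and 12 below, with 3 biological replicates per arm and month and 30 libraries in all. Age at exposure and any sham handling of controls are not given in the sources used here. Each library came from bulk tissue, so fewer pericentral cells in a slice and less RNA per pericentral cell cannot be told apart.

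Along the path from the portal vein to the central vein, hepatocytes differ in what they do. Endothelial cells of the central vein secrete Wnt ligands and the Wnt amplifier R-spondin, and the resulting beta-catenin activity, with TCF/LEF proteins on DNA, maintains the pericentral programme. Glutamine synthesis, ammonia scavenging and much drug metabolism by cytochromes P450 take place there, while urea synthesis and gluconeogenesis lie nearer the portal vein. Among the 10 genes, Glul, Oat, Slc1a2 and Rhbg serve glutamate, glutamine and ammonia handling. Cyp2e1 and Cyp1a2 are cytochromes P450, Lect2 encodes a secreted hepatokine, and Lgr5, Axin2 and Tbx3 are a receptor, a feedback inhibitor and a transcription factor linked to Wnt signalling.

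Because TCF/LEF sites are the DNA address of this pathway, the promoter windows of the RefSeq table (GRCm38.p6, 250 bases before to 50 after each start) were searched for CTTTGAT and CTTTGAA on both strands. The table matched 7 of the 10 genes by symbol; Lgr5, Tbx3 and Rhbg were not matched. A match was found in 4 of the 7, compared with 8.65% of the 32851 windows in the table. Glul, Oat and Axin2 held none. The stretches upstream of the start that hold these matches follow, each 5′ to 3′ on the gene's strand with the match in capitals. They are shown because 4 genes whose counts followed different courses below each hold a searched form. Slc1a2 and Lect2 hold CTTTGAT, read as ATCAAAG, and Cyp2e1 and Cyp1a2 hold CTTTGAA, read as TTCAAAG in Cyp1a2.
Slc1a2, chr2:102706188-102706282, plus strand: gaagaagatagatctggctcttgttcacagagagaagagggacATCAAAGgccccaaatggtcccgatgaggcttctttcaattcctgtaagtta
Cyp2e1, chr7:140763639-140763735, plus strand: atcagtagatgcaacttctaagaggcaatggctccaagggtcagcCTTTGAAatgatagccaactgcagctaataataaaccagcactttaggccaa
Cyp1a2, chr9:57683848-57683905, minus strand: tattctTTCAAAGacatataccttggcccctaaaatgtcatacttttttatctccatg
Lect2, chr13:56548539-56548615, minus strand: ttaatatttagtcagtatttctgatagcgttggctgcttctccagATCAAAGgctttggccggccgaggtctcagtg

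The RefSeq start used for Slc1a2 lies inside the Gencode gene, downstream of its annotated first base, so that stretch is upstream of an internal start and not of the whole gene. The match began 207 bases before the RefSeq start in Slc1a2, 135 in Cyp2e1, 244 in Cyp1a2 and 32 in Lect2. The core of the dioxin response element, GCGTG, through which the Ah receptor acts, was in 1 of the 7 windows (Lect2) and in 32.4% of all windows. An E-box, CACGTG, was in none of the 7 and in 7.15% of all windows. The motifs do not overlap one another, and a match is a description of letters in a window.

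Whole-series properties that bear on these genes were as follows. Libraries held 7995248 to 20215995 counts in genes, the lowest of them at month 1. The share of the non-coding RNA Gm26917 was 3.04% to 7.57% at months 1 and 2 (12 libraries) and 0.452% to 2.04% at months 4, 9 and 12 (18 libraries). At month 1 its share was 3.04% to 6.09% in controls and 6.36% to 7.57% in irradiated livers. The arms did not overlap in it at month 2 (3.32% to 4.76% against 4.79% to 6.93%), month 4 (0.469% to 0.507% against 0.827% to 0.985%) or month 12 (1.33% to 2.04% against 0.759% to 1.04%), and they overlapped at month 9. The part of this share in the irradiation differences below was not tested except as a covariate. Control replicate 2 of month 1 also stood apart in the mitochondrial ribosomal RNA mt-Rnr2, at 7.27% of counts, against 0.239% to 2.83% in the other 29 libraries. All 5 hepatocyte markers were detected in every library, with Alb, which encodes albumin, between 15770 and 75660 CPM, that is, counts scaled to a common library total. Values below are such CPM, scaled by TMM factors, and group values are mean ± SD with n = 3. Tests are edgeR's quasi-likelihood tests on all 30 libraries with Benjamini-Hochberg adjustment over the 19685 genes, and a gene was called at an adjusted p under 0.05.

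Expressed per kilobase of exon so that genes can be compared, the 10 genes spanned more than 3 orders of magnitude. The mean level over the 30 libraries was 2308 CPM per kilobase for Cyp2e1, 513 for Cyp1a2, 494 for Oat and 320 for Glul. Lect2 followed at 83.5, Slc1a2 at 22.1 and Tbx3 at 6.29. Axin2 stood at 1.67, Lgr5 at 0.982 and Rhbg at 0.467 CPM per kilobase. The enzymes were thus abundant, and the 3 Wnt-linked genes were low in whole liver. Rhbg rested on 2 to 34 counts per library, so its values are the least precise.

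The clearest irradiation difference among the 10 genes was in Slc1a2 at month 1. Slc1a2 (chromosome 2, 102658659 to 102790784) encodes GLT-1, a transporter that takes up glutamate, the substrate of glutamine synthetase. At month 1 the 3 controls held 404, 465 and 290 CPM and the irradiated livers 172, 203 and 204. The irradiated libraries lay close together and all below the lowest control. The means were 193 ± 18.04 and 386 ± 88.8 CPM, a 2.00-fold lower level after irradiation (log2 -1.001 ± 0.20 SE, edgeR adjusted p = 0.00341).

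At month 2 Slc1a2 was 271, 331 and 305 CPM in controls and 206, 253 and 239 after irradiation. The groups again did not overlap, but the difference of log2 -0.38 ± 0.20 was not called (edgeR adjusted p = 0.268). At month 4 the order was the opposite, with 284, 222 and 278 CPM in controls and 306, 364 and 333 in irradiated livers (log2 0.36 ± 0.20, edgeR adjusted p = 0.337). The control libraries at month 9 held 260, 178 and 252 CPM and the irradiated ones 186, 285 and 277. At month 12 the values were 275, 474 and 361 CPM in controls and 382, 387 and 279 in irradiated livers, and at both of these months the groups overlapped.

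Slc1a2 was also the single member of the 10 whose irradiation effect differed between months by the interaction F-test (edgeR adjusted p = 0.0146), in a comparison where 11% of all genes were called. Across the year, controls ran from a mean of 386 CPM at month 1 down to 230 at month 9 and back to 370 at month 12. Irradiated livers ran from 193 at month 1 up to 334 at month 4, with 249 at month 9 and 349 at month 12. Both arms changed over months 1 to 12 (edgeR adjusted p = 0.00667 in controls and 0.00179 in irradiated livers). The control arm also changed within months 4 to 12 (edgeR adjusted p = 0.0273), where 20.2% of all genes were called. That call ended with limma voom (adjusted p = 0.112), with Gm26917 as a covariate (0.437) and on leaving out any of 4 control libraries, replicate 2 of month 4, 9 or 12 or replicate 3 of month 12 (0.0551 to 0.310).

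Library properties moved with Slc1a2 at the early months. Over the 12 libraries of months 1 and 2, log2 Slc1a2 and log2 of the Gm26917 share had r = -0.931, and over the 18 later libraries r = 0.675, as descriptions across libraries that share arms and months. The month 1 difference with Gm26917 as a covariate was log2 -0.68 ± 0.25 (edgeR adjusted p = 0.307). Without control replicate 2, the library rich in mt-Rnr2, it was log2 -0.79 ± 0.21 (edgeR adjusted p = 0.0582), and the interaction had an adjusted p of 0.0522. The part of these properties in the result was not tested further. The antisense gene Gm13872 shares 189 exon bases with Slc1a2 and held 1344 counts in all against 121291, so reads in that stretch cannot be assigned by strand here.

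**Figure D1:**
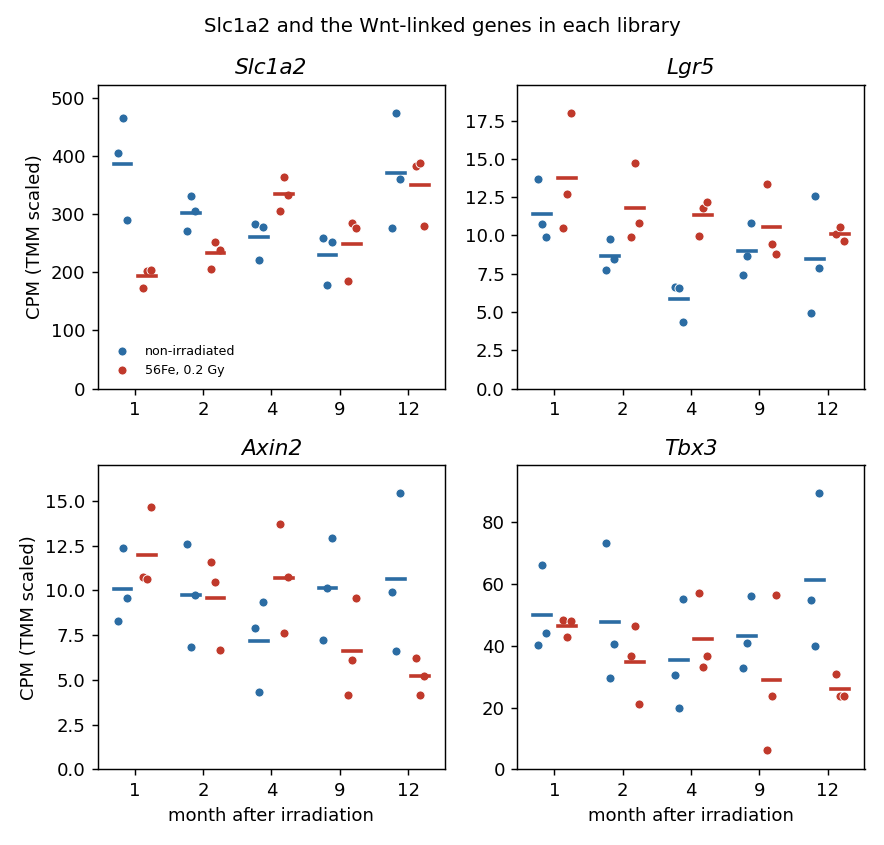
TMM-scaled CPM (vertical axis, from 0) of Slc1a2, Lgr5, Axin2 and Tbx3 against months since exposure (horizontal axis), each point a library and each bar a mean of 3, in blue without and in red with irradiation. Irradiated Slc1a2 lies below control at month 1 (193 against 386 CPM), irradiated Lgr5 above control at month 4 (11.3 against 5.87), and irradiated Axin2 below control at month 12 (5.20 against 10.7).

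**Figure D2:**
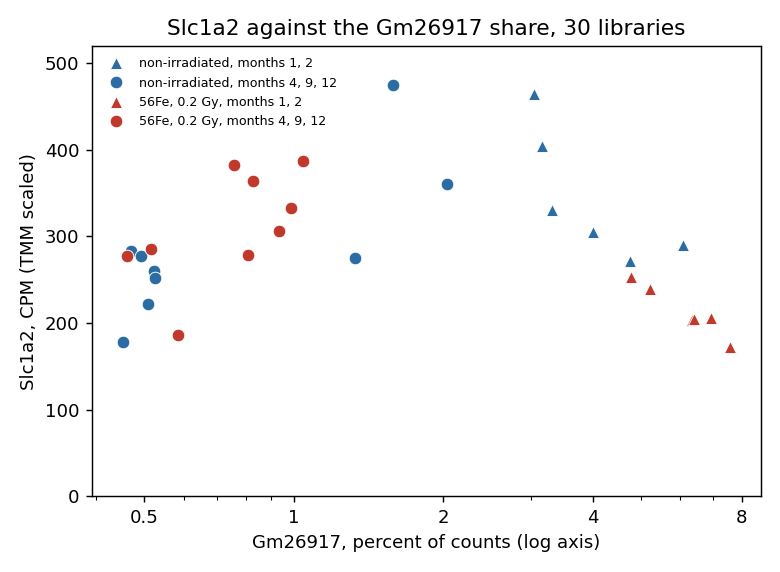
Slc1a2 in CPM (vertical axis, from 0) against the percent of counts taken by Gm26917 (horizontal log axis) in the 30 libraries; triangles are months 1 and 2, circles months 4, 9 and 12, with arms in blue and red. The 12 early libraries slope downward (r = -0.931 on log2 values) and the 18 later ones upward (r = 0.675).

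Glul and Oat lay lower in irradiated than in control livers on average at month 1, but neither was called. Glul (chromosome 1, 153899944 to 153909723) encodes glutamine synthetase, which is restricted to the innermost pericentral hepatocytes and joins ammonia to glutamate. Controls at month 1 held 686, 893 and 422 CPM and irradiated livers 484, 576 and 513, so the irradiated values lay inside the control range (log2 -0.35 ± 0.20, edgeR adjusted p = 0.408). At month 2 controls held 744, 754 and 679.5 CPM and irradiated livers 534, 678.9 and 466, with all 3 irradiated values below the controls, the highest of them by under 1 CPM (log2 -0.37 ± 0.20, edgeR adjusted p = 0.278). Oat (chromosome 7, 132557478 to 132576398) encodes ornithine aminotransferase, which feeds glutamate to glutamine synthetase. At month 1 it was 586, 1026 and 429 CPM in controls and 429, 513 and 429 after irradiation, and the groups overlapped (log2 -0.57 ± 0.25, edgeR adjusted p = 0.220). Control replicate 3 of month 1 was the lowest control for both genes and for Slc1a2. Without it both genes were called lower at month 1, Glul at log2 -0.60 ± 0.18 (edgeR adjusted p = 0.0348) and Oat at log2 -0.82 ± 0.24 (edgeR adjusted p = 0.0305). Leaving it out also raised the calls over all genes at month 1 from 906 to 1874. This library had the highest Gm26917 share of the month 1 controls, 6.09%, against 6.36% to 7.57% in irradiated livers. The part of that share in both calls was not tested.

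Cyp2e1 (chromosome 7, 140763739 to 140774987), the ethanol- and acetaminophen-oxidising cytochrome P450, had its lowest group mean in the irradiated livers of month 1. Controls then held 4859, 5399 and 4330 CPM and irradiated livers 3641, 3775 and 3176. All 3 irradiated libraries were below all 3 controls, and the same held at month 2, where controls held 5845, 5825 and 5460 CPM and irradiated livers 4572, 4591 and 5016. Neither difference was called, at log2 -0.46 ± 0.18 for month 1 (edgeR adjusted p = 0.157) and -0.27 ± 0.18 for month 2 (edgeR adjusted p = 0.389). At month 4 the irradiated mean was the higher one, 5820 ± 491 against 5022 ± 794 CPM, with overlapping groups. Averaged over the 5 months the difference was log2 -0.20 ± 0.08 (edgeR adjusted p = 0.130), with a lower irradiated mean in 4 of the 5.

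Read against the table, month 1 had 1 of the 10 genes called, Slc1a2, where 4.6% of all genes were called and 3.11% were called lower. At an unadjusted p under 0.05 there were 3, Slc1a2, Oat and Cyp2e1, and 8 of the 10 had negative log2 differences with a median of -0.28, against a median of -0.03 over all genes tested. Groups did not overlap for Slc1a2 and Cyp2e1, 2 of 10, as for 18.6% of all genes. At month 2 none was called by edgeR, where 4.37% of all genes were, and none had an unadjusted p under 0.05. DESeq2 also called none, and limma voom called Glul, where it called 3667 of all genes. Groups did not overlap at month 2 for Glul, Slc1a2 and Cyp2e1, all lower after irradiation, and Lgr5, higher, which is 4 of 10 against 34.2% of all genes. These counts are near the background.

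Markers of other liver cells were read at the same months. At month 1 the summed level of 5 hepatocyte markers was 37410 to 48720 CPM in controls and 20540 to 40740 in irradiated livers, and none of them was called. That of 8 endothelial markers was 255 to 300.6 CPM and 280.3 to 347.2, with none called. Among stellate cell, Kupffer cell, lymphocyte, neutrophil and erythroid markers none was called at month 1, and of 5 cholangiocyte markers Sox9 alone was higher, at 7.83 ± 1.91 against 2.40 ± 0.951 CPM (edgeR adjusted p = 0.0406). At month 2 the endothelial Thbd was lower, and no marker in any of the 8 lists was called at months 4, 9 and 12. Averaged over months, 2 of 6 stellate cell markers were lower after irradiation, Dcn (log2 -0.19 ± 0.05) and Colec11 (log2 -0.28 ± 0.08), and 2 of 5 erythroid markers, Hba-a1 (log2 -1.09 ± 0.20) and Hbb-bs (log2 -0.81 ± 0.17), with none called in the other 6 lists. The part of these differences in the members' results was not tested.

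Some other pericentral genes were also lower after irradiation at month 1. In a list of 18, 3 fell, none rose and 15 were not called, where 4.6% of all genes were called and 3.11% were called lower. Cyp7a1, which sets the rate of bile acid synthesis, was 38.0 ± 15.1 CPM after irradiation and 397 ± 153 in controls (log2 -3.38 ± 0.64, edgeR adjusted p = 0.00415). Cyp2a5, a coumarin hydroxylase, was 124 ± 56.5 against 542 ± 120 CPM (log2 -2.13 ± 0.35, edgeR adjusted p = 0.000844). Rgn, regucalcin, a lactonase of ascorbate synthesis, was 533 ± 76.5 against 888 ± 249 CPM (log2 -0.74 ± 0.19, edgeR adjusted p = 0.0209). The call of Rgn ended when any single library of month 1 other than control replicate 3 was left out, and with Gm26917 as a covariate Cyp7a1 alone was called. The list's median was log2 -0.46, with 16 of 18 negative. Averaged over months 2 of the 18 were called lower and none higher, where 5.26% of all genes were called. These were Rgn (log2 -0.34 ± 0.08, edgeR adjusted p = 0.0204) and Cyp2a5 (log2 -0.58 ± 0.15, edgeR adjusted p = 0.0281), and 17 of the 18 were negative. Of 16 periportal genes none was called at month 1 by edgeR, and their median was -0.37 with 12 negative, so that list too lay below control on the whole. DESeq2 called 3 of the periportal genes and limma voom 4, where limma voom called 2000 of all genes. Of 16 clock genes 10 were called at month 1, such as the clock activator Arntl at 29.9 ± 7.41 CPM after irradiation and 2.21 ± 0.273 in controls (log2 3.75 ± 0.42, edgeR adjusted p = 1.562e-05). Cyp7a1 is known to follow the clock, and the part of the clock difference in these results was not tested.

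**Figure D3:**
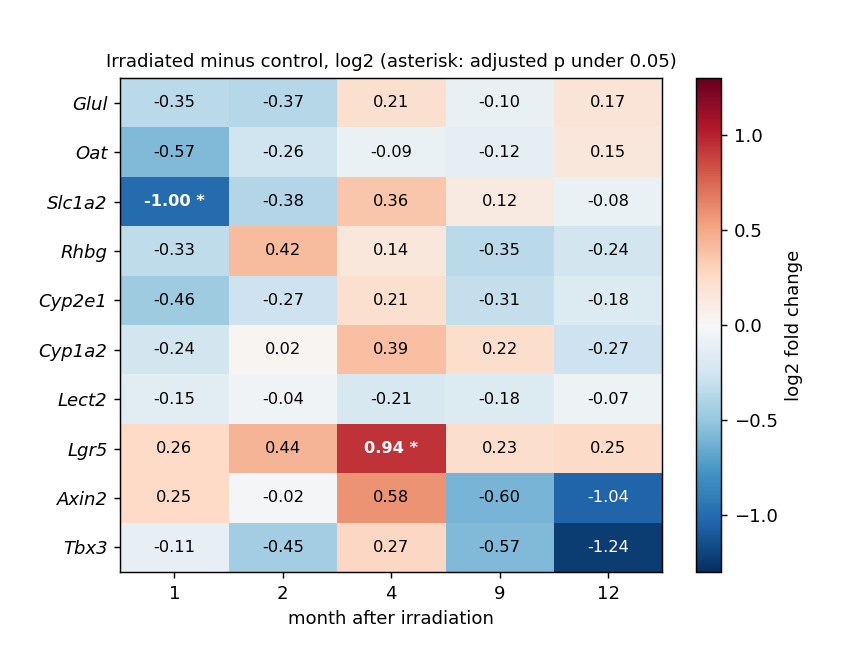
Log2 difference, irradiated minus control, for the 10 genes (rows) at each month (columns), from the edgeR fit; red is higher and blue lower after irradiation, and an asterisk marks an adjusted p under 0.05. The 2 marked cells are Slc1a2 at month 1 (-1.001) and Lgr5 at month 4 (0.94), while Axin2 (-1.04) and Tbx3 (-1.24) at month 12 are large but not marked.

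Lgr5 was the member that was higher after irradiation. Lgr5 (chromosome 10, 115450311 to 115587780) encodes the R-spondin receptor that amplifies Wnt signalling in pericentral hepatocytes. At month 4 controls held 6.65, 6.58 and 4.37 CPM and irradiated livers 9.94, 11.8 and 12.2. The 3 irradiated libraries lay above all 3 controls. The means were 11.3 ± 1.21 and 5.87 ± 1.296 CPM, a 1.92-fold higher level (log2 0.94 ± 0.25, edgeR adjusted p = 0.0388). It was the single one of the 10 genes called at month 4, where 3.6% of all genes were and 1.82% were called higher.

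At the other months the Lgr5 difference was positive and smaller. Month 1 controls held 13.7, 10.7 and 9.87 CPM against 10.5, 12.7 and 18.02 after irradiation, and month 2 controls 7.72, 9.77 and 8.46 against 9.87, 14.7 and 10.8. At month 9 the values were 7.41, 8.67 and 10.8 CPM in controls and 13.4, 9.47 and 8.76 in irradiated livers, and at month 12 they were 4.92, 12.6 and 7.88 against 10.1, 10.5 and 9.61. The groups overlapped except at month 2. Averaged over the 5 months Lgr5 was log2 0.43 ± 0.11 higher, or 1.34-fold (edgeR adjusted p = 0.0262), the single call among the 10 where 5.26% of all genes were called and 2.44% were called higher. Of the 10 genes, 8 had a negative difference in that average, with a median of log2 -0.15. The Lgr5 effect was not called as different between months (edgeR adjusted p = 0.435).

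These Lgr5 calls rested on 51 to 205 counts per library and were close to the threshold. With Gm26917 as a covariate neither was called, at log2 1.11 ± 0.35 for month 4 (edgeR adjusted p = 0.366) and log2 0.47 ± 0.13 over months (edgeR adjusted p = 0.155). Leaving out any 1 of the 6 libraries of month 4 ended the call there, with adjusted p between 0.0690 and 0.215 and log2 differences between 0.74 and 1.02. The average over months had an adjusted p of 0.0526 without control replicate 1 of month 9, 0.0546 without irradiated replicate 3 of month 1 and 0.0530 without irradiated replicate 3 of month 4. Without month 4 altogether it was log2 0.30 ± 0.12 (edgeR adjusted p = 0.206).

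Other genes of the Wnt pathway were read from a list of 36, of which 34 were tested. At month 4, 2 of the 34 rose and none fell, where 3.6% of all genes were called: Tcf7l2, the main TCF factor of hepatocytes, at 19.2 ± 2.01 against 11.5 ± 0.294 CPM (log2 0.74 ± 0.17, edgeR adjusted p = 0.0127), and Tcf7l1, a mostly repressive TCF, at 3.09 ± 0.200 against 1.40 ± 0.288 CPM (log2 1.14 ± 0.29, edgeR adjusted p = 0.0291). At month 1, 2 rose and 2 fell, where 4.6% of all genes were called. The co-receptor Lrp5 was 92.3 ± 8.01 against 59.3 ± 13.9 CPM, and Dkk3, of the Dickkopf family of secreted proteins, 2.95 ± 0.537 against 1.40 ± 0.127. The cell cycle gene Ccnd1 was 8.72 ± 0.215 against 23.6 ± 8.68 CPM, and the receptor Fzd4 20.9 ± 4.21 against 51.6 ± 16.8. Averaged over months Tcf7l2 was higher by log2 0.32 ± 0.07, and Ccnd1 (log2 -0.65 ± 0.16) and Ctnnb1, which encodes beta-catenin (log2 -0.20 ± 0.06), were lower, 3 of 34 called where 5.26% of all genes were. None of the 34 was called at months 2, 9 or 12 by edgeR. The month 4 calls rested on single libraries too: neither was called without control replicate 1, 2 or 3 or without irradiated replicate 1 or 3, and Tcf7l1 was not called without irradiated replicate 2. At month 1, Lrp5 alone was called without control replicate 1, control replicate 2 or irradiated replicate 3, Lrp5 and Dkk3 without irradiated replicate 1 or 2, and Lrp5 was not called without control replicate 3. The call of Ctnnb1 over months ended under most such omissions, and with Gm26917 as a covariate none of the 34 was called at month 4 or over months.

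Axin2 and Tbx3 were lower after irradiation at month 12 in every library, with neither difference called. Axin2 (chromosome 11, 108920349 to 108950783) encodes a scaffold of the complex that degrades beta-catenin and is itself a Wnt target, so it serves as negative feedback. Tbx3 (chromosome 5, 119670669 to 119684724) encodes a T-box repressor that is a beta-catenin target in liver. At month 12 Axin2 was 9.92, 6.63 and 15.4 CPM in controls and 6.23, 4.15 and 5.24 in irradiated livers. Tbx3 was 55.0, 39.9 and 89.5 CPM in controls and 30.8, 23.8 and 23.6 in irradiated livers. In both genes the groups did not overlap, as for 7.78% of all genes in the same direction and 15.5% in either. Neither was called, Axin2 at log2 -1.04 ± 0.34 (edgeR adjusted p = 0.199) and Tbx3 at log2 -1.24 ± 0.53 (edgeR adjusted p = 0.318), though both had an unadjusted p under 0.05. No gene in the table was called at month 12 (0% of those tested) by edgeR, while DESeq2 called 163 and limma voom 7; none of the 10 was called by any of the 3.

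The Axin2 difference had the opposite sign at month 4, where controls held 7.87, 4.30 and 9.34 CPM and irradiated livers 13.7, 7.64 and 10.7. That difference was log2 0.58 ± 0.34 (edgeR adjusted p = 0.367), with overlapping groups. At month 9 controls held 7.24, 10.2 and 12.95 CPM and irradiated livers 4.14, 6.09 and 9.58, again overlapping (log2 -0.60 ± 0.34, edgeR adjusted p = 0.406). Irradiated livers thus went from 12.0 ± 2.29 CPM at month 1 to 5.20 ± 1.04 at month 12, and Axin2 changed over months 1 to 12 in that arm (edgeR adjusted p = 0.0216). That call ended without irradiated replicate 2 (adjusted p = 0.0845) or 3 (0.0508) of month 12, with limma voom (0.108), without the low-count filter (0.117) and with Gm26917 as a covariate (0.430). Controls went from 10.1 ± 2.09 to 10.7 ± 4.45 CPM, and no change over time was called (edgeR adjusted p = 0.544). The difference between arms in this course, tested as the interaction, missed the threshold with an adjusted p of 0.0959 in edgeR, and DESeq2 called it.

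Tbx3 varied widely between livers of one group. At month 9 the 3 irradiated livers held 6.39, 23.9 and 56.6 CPM, and at month 2 the 3 controls held 73.2, 29.7 and 40.5. Over all 30 libraries the highest value was 14.01 times the lowest, the widest range of the 10 genes. Tbx3 was called in none of the 11 comparisons. The antisense gene Tbx3os1 shares 115 exon bases with it and held 2048 counts in all against 17224.

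Axin2 and Tbx3 moved together between libraries, though the highest value of Axin2 was only 3.73 times its lowest. Their log2 CPM had r = 0.848 over the 30 libraries, 0.855 over the 18 later ones and 0.868 in deviations from group means, the highest of the 45 pairs of the 10 genes in deviations. The libraries share arm and month, which the deviations take out, and depth. Among all tested genes with a mean of at least 1 CPM, the gene with the highest r to Axin2 was Tbx3, followed by Dffa (0.716) and Sp5 (0.712). For Tbx3 the order was Axin2, Sp5 (0.828) and Rnf43 (0.757). Sp5 is a zinc-finger gene and Rnf43 a ubiquitin ligase that removes Frizzled receptors, and both are known Wnt targets that stood in the Wnt list. At month 12 Sp5 was 1.31 ± 0.524 CPM in irradiated livers and 3.26 ± 2.29 in controls, and Rnf43 was 22.6 ± 0.390 against 31.6 ± 19.4; neither was called. Lgr5 did not follow these genes, with r of -0.301 to Axin2 and -0.386 to Tbx3 in deviations.

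**Figure D4:**
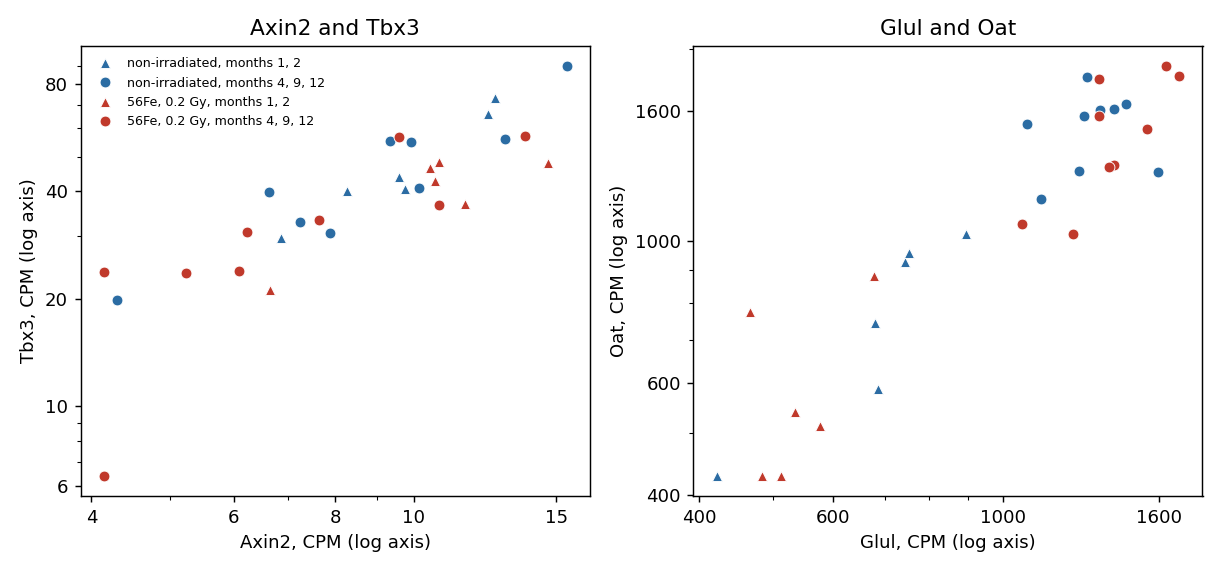
Each point is 1 of the 30 libraries on log axes of CPM, Axin2 against Tbx3 at left and Glul against Oat at right; triangles are months 1 and 2, circles months 4, 9 and 12, blue non-irradiated and red irradiated. Axin2 and Tbx3 form 1 band with both periods mixed (r = 0.848), whereas Glul and Oat separate the 12 early from the 18 later libraries (r = 0.927).

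The other large pattern was between the early and later collections, in both arms. Glul was 422 to 893 CPM at months 1 and 2 (12 libraries) and 1058 to 1702 CPM at months 4, 9 and 12 (18 libraries), so that every later liver was above every earlier one. At month 4 controls held 1277, 1288 and 1398 CPM and irradiated livers 1396, 1636 and 1546. At month 9 the values were 1259, 1447 and 1341 CPM and 1058, 1337 and 1378, and at month 12 they were 1122, 1596 and 1076 CPM and 1702, 1234 and 1334. The means of the later and earlier libraries stood in a ratio of 1.88 in controls and 2.59 in irradiated livers. Oat behaved alike, with 429 to 1026 CPM early and 1027 to 1877 CPM later, a ratio of 1.92 in controls and 2.48 in irradiated livers.

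Lect2 (chromosome 13, 56542464 to 56548502) and Rhbg (chromosome 3, 88242874 to 88254709) were also higher later, with some overlap. Lect2 held 35.9 to 66.5 CPM early and 77.4 to 132 CPM later in all but 1 library, irradiated replicate 2 of month 12 at 50.0. Its later mean was 93.9 ± 18.7 CPM against 51.0 ± 8.90. Rhbg, the ammonia transporter, averaged 0.471 ± 0.293 CPM early and 1.19 ± 0.464 later, and the control libraries of the periods did not overlap. In irradiated livers they did: replicate 2 of month 2 stood at 1.22 CPM, and 3 later livers stood at 0.447, 0.479 and 0.574. Rhbg shares 1190 exon bases with Gm38392 on the same strand, which held 29 counts in all against 385, so its count may be incomplete.

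Cyp1a2 went the other way. Cyp1a2 (chromosome 9, 57676937 to 57683703) encodes the caffeine-oxidising cytochrome P450 and is an Ah receptor target. Month 1 controls held 1099, 1642 and 1523 CPM and irradiated livers 949, 1716 and 937, and month 2 controls 2673, 1744 and 2599 against 2242, 2498 and 2386. At month 4 controls held 525, 446 and 561 CPM and irradiated livers 777, 689 and 545. Months 9 and 12 lay between 204 and 657 CPM in both arms, so every later liver was below every earlier one. The earlier mean was 3.68 times the later, 1834 ± 639 against 498 ± 153 CPM. Within the early period the 3 controls of month 2 lay above the 3 of month 1.

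**Figure D5:**
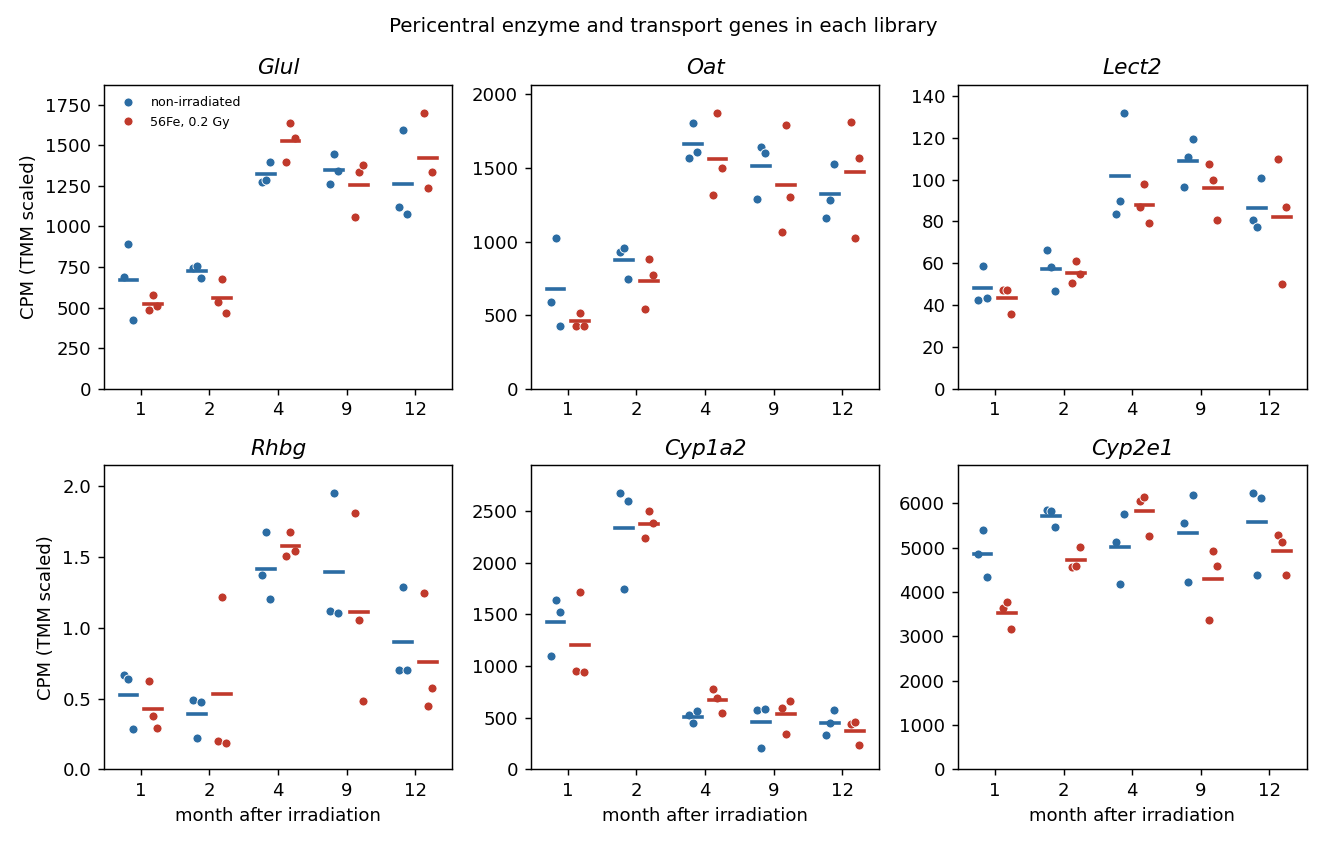
TMM-scaled CPM (vertical axes, from 0) of the enzyme, transport and hepatokine genes against months since exposure (horizontal axis), each point a library and each bar a mean of 3, in blue without and in red with irradiation. Glul and Oat are higher at months 4, 9 and 12 than at months 1 and 2 without overlap, Cyp1a2 is lower without overlap, and Cyp2e1 keeps to between 3176 and 6235 CPM.

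By the F-test over months 1 to 12, 7 of the 10 genes changed in controls, Glul, Oat, Lect2, Rhbg, Cyp1a2, Slc1a2 and Lgr5, where 58.3% of all genes were called. In irradiated livers 8 changed, Glul, Oat, Lect2, Rhbg, Cyp1a2, Slc1a2, Cyp2e1 and Axin2, where 59% were called. Those counts are near the background. The Lgr5 call in controls had an adjusted p of 0.0339 and ended on leaving out any of 8 single libraries, at most 0.136 (without replicate 3 of month 4). The Cyp2e1 call ended on leaving out any of 7, at most 0.119 (without replicate 3 of month 1), and that of Rhbg in irradiated livers on leaving out any of 3, at most 0.0581. For Glul the edgeR adjusted p was 3.953e-05 in controls and 4.189e-08 in irradiated livers, and for Cyp1a2 it was 6.223e-07 and 9.178e-07. Cyp2e1 was called in irradiated livers (edgeR adjusted p = 0.0147) and not in controls (edgeR adjusted p = 0.697), but its irradiation effect was not called as different between months (edgeR adjusted p = 0.283). Full separation of later from earlier libraries, found for Glul and Oat (above) and Cyp1a2 (below), held for 7.21% and 1.29% of all genes, or 8.5% in either direction.

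Within months 4 to 12 no change was called in the step genes. For Glul the adjusted p was 0.936 in controls and 0.656 in irradiated livers, and for Cyp1a2 it was 0.897 and 0.282, all from edgeR. Slc1a2 was the single call in controls, and in irradiated livers edgeR called none of the 10, where 2.93% of all genes were called; Slc1a2 and Axin2 had an unadjusted p under 0.05, and DESeq2 and limma voom also called none. Across months 1 to 12 the Gm26917 share moved with the step, with r = -0.899 to Glul, -0.872 to Oat, -0.851 to Lect2 and 0.798 to Cyp1a2 over the 30 libraries. Over the 18 later libraries those r values were -0.091, -0.297, -0.395 and 0.056. Age, time after exposure and whatever differed between the collections cannot be told apart here.

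Other zonation genes were called over time at shares near those of all genes, 58.3% in controls and 59% in irradiated livers. In controls 13 of the 18 further pericentral genes and 9 of the 16 periportal genes changed over months 1 to 12, and in irradiated livers 14 and 9. The summed level of the 18 pericentral genes was 3045 to 8085 CPM at months 1 and 2 and 7261 to 13790 CPM later. That of the 16 periportal genes was 25420 to 68910 CPM and 64360 to 88790 CPM, a sum that Alb dominates. Of 6 Ah receptor targets other than Cyp1a2, 5 were tested and 3 changed in each arm. Cyp1a1, the most Ah-dependent of these, was 1.48 ± 0.305 CPM in month 1 controls, 4.50 ± 3.66 in month 2 controls and 1.51 ± 0.267 in month 4 controls, and its later control means lay near that of month 1. None of these targets was called in an irradiation comparison.

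Glul and Oat moved together between animals as well as between months. Their r was 0.927 over the 30 libraries and 0.700 in deviations from group means, and Oat and Lect2 had 0.895 and 0.622. Glul and Slc1a2 had 0.363 and 0.614. Glul and Cyp1a2 had -0.769 over the 30 libraries and -0.028 in deviations, so their opposite course was one of months and not of animals within a group. Of the 45 pairs, 25 were positive over the 30 libraries and 33 in deviations. The genes most like Glul were Plekhf2 (r = 0.961), Slc48a1 (0.957) and Rhou (0.956), and those most like Oat were Gid8 (0.951), Gid4 (0.948) and Ugt3a1 (0.945).

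For the rest, the same search over the 30 libraries named Hsd17b10 (r = 0.943), Hsd17b12 (0.942) and Gstt1 (0.941) beside Lect2. It named Cyp4f13 (0.882), Pde4c (0.829) and Tarbp1 (0.814) beside Cyp1a2, and Tshz1 (0.859), Wdtc1 (0.838) and Abhd14b (0.837) beside Cyp2e1. Rhbg had Tmem134 (0.821), Myct1 (0.814) and Bphl (0.806), Lgr5 had Dtx3 (0.761), Nlrp1b (0.735) and Dnhd1 (0.726), and Slc1a2 had Lrrc42 (0.725), Pdxk (0.714) and Zfp275 (0.708). In deviations from group means Pde4c kept 0.230 with Cyp1a2 and Zfp275 0.322 with Slc1a2, the lowest of these 30 values.

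At month 9 none of the 10 genes was called by edgeR, where 1.66% of all genes were, none had an unadjusted p under 0.05, and DESeq2 and limma voom also called none. No member's groups failed to overlap, against 18.2% of all genes. At month 4 the groups did not overlap for Lgr5 and Slc1a2, both higher after irradiation, against 30.2% of all genes, and 8 of the 10 log2 differences were positive with a median of 0.24, against 0.04 over all genes. Among the 10 group means of each gene, neighbours in the order of levels mostly overlapped. The exceptions were the step itself in Glul and Oat, and in Cyp1a2 the step and the gap between the controls of month 2 and month 1.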

How the data were processed

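The authors deposited raw counts of reads for each Ensembl gene. Per the labels and series text, RNA from slices of frozen left lobe was depleted of ribosomal RNA with Ribo-Zero, made into TruSeq libraries and sequenced as paired 50-base reads; reads were aligned to GRCm38 and counted per gene of Gencode M14 with STAR 2.5.3a (GeneCounts). Which strand setting the counts follow is not given in the sources used here. The table totals served as depth (7995248 to 20215995 per library); the reads used per library, as the series text states them, are more numerous, for a reason not found.

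Gene symbols and positions are those of Gencode M21 (51633 of 51826 identifiers matched). The test was edgeR 4.0.16 in R 4.3.3: filterByExpr (minimum count 10, total 15), TMM, robust quasi-likelihood fit, 1 coefficient for each of the 10 groups, all 30 libraries. There were 11 comparisons: irradiated minus control at each of the 5 months and averaged, the interaction F-test, and F-tests over time in each arm for months 1 to 12 and 4 to 12. Adjusted p-values are Benjamini-Hochberg values over 19685 genes. The p-values measure the spread between samples that the labels call biological replicates. Correlations use log2 CPM with a prior count of 2 and are descriptions.

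The members and gene lists were chosen with earlier results of these data known. Text names all 10 members; from each other list up to 4 called genes per comparison with the smallest adjusted p; and for each member the 3 genes with the highest r, leaving out predicted genes. Sp5, Rnf43 and Cyp1a1 are also given as levels, chosen after values were seen. Other settings were RLE and upper quartile factors, no filter, a filter of 1 CPM in at least 3 libraries, DESeq2 1.42.0, limma 3.58.1 voom with sample weights, a replicate block, the Gm26917 level as covariate, the 6 compared libraries alone, and each library left out; subsets of months, and the 6 libraries of month 12 with the block, were added after the data were seen. No 2 libraries of a group agreed within sampling noise (30 pairs, chi-square per gene at least 10.2). After the main fit, the same fitting function was run on counts simulated from its means and dispersions, with known changes at month 1. That simulation was built from the fit itself, and its outcome is not given here. Figures used Python 3.11.15 and matplotlib 3.10.9.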

Additional observations from a re-analysis of the deposited data

Results flagged for a closer look

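The irradiation effect on 7 genes differed between months by the edgeR interaction F-test, and each is given here with no explanation. The 7 genes were 1 of the 10 members (10%), 2 of the 18 further pericentral genes (11.1%) and 4 of the 34 Wnt pathway genes tested (11.8%). None of the 16 periportal genes was called, so these shares were no higher than about that of all genes, 11%. Slc1a2 (adjusted p = 0.0146) was lower after irradiation by log2 -1.001 ± 0.20 at month 1 and stood at 0.36 ± 0.20 at month 4. Cyp7a1 (adjusted p = 0.0128) was log2 -3.38 ± 0.64 at month 1, and in later livers ran from -1.16 ± 0.59 (month 4) to 1.15 ± 0.59 (month 9). Cyp2a5 (adjusted p = 0.0224) was log2 -2.13 ± 0.35 at month 1 and between -0.46 and -0.03 at the other months. Lrp5 (adjusted p = 0.0156), the Wnt co-receptor, was log2 0.64 ± 0.16 at month 1, -0.26 ± 0.16 at month 2 and 0.47 ± 0.16 at month 4. Among the TCF/LEF factors, Tcf7 (adjusted p = 0.0132) was log2 -0.65 ± 0.27 at month 1 and 0.91 ± 0.28 at month 4. Lef1 (adjusted p = 0.0314), at only 0.0752 to 2.09 CPM in the 30 libraries, was log2 0.91 ± 0.45 at month 4 and -1.78 ± 0.49 at month 9. Tcf7l1 (adjusted p = 0.0416) was log2 1.14 ± 0.29 at month 4 and -0.38 ± 0.28 at month 9. Of these monthly differences edgeR called those of Slc1a2, Cyp7a1, Cyp2a5 and Lrp5 at month 1 and of Tcf7l1 at month 4, and none of the others. All 7 interaction values are from the fit of 30 libraries, and 11% of all genes passed the same test.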

How the results depend on the processing

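Over 2391 recomputed values of single members, 2298 kept their side of the threshold, 77 were no longer past it and 16 came to pass it. Sign was compared only where a fit called the gene and the test had a direction, and there 0 reversed. Sign changes among uncalled values were not counted. Counts of members called moved as follows. With the Gm26917 covariate 0 were called at month 1, at month 4, averaged over months, over months 1 to 12 in irradiated livers and over months 4 to 12 in controls, and 2 (Glul, Cyp1a2) over months 1 to 12 in controls. Over all genes the covariate left 116 calls at month 1, 0 at month 4 and 39 for the average. Over months 1 to 12 it left 61 in irradiated livers and 1865 in controls, and over months 4 to 12 in controls 2. With limma voom 4 were called at month 1 (Glul, Oat, Cyp2e1, Slc1a2), 1 at month 2 (Glul), 2 averaged over months (Lgr5, Cyp2e1), 3 in the interaction (Glul, Cyp2e1, Slc1a2) and 0 in controls over months 4 to 12. Over all genes limma voom called 2000 at month 1, 3667 at month 2, 2685 for the average and 4416 in the interaction. DESeq2 called 2 in the interaction (Axin2, Slc1a2), where it called 3857 of all genes. The 6 compared libraries alone gave 1 at month 2 (Slc1a2) and 3 at month 4 (Lgr5, Cyp1a2, Slc1a2). Over all genes those fits gave 3026 calls at month 2 and 1752 at month 4. Months 4, 9 and 12 alone gave 0 for the average and 0 for the interaction; leaving out month 4 gave 0 for the average, and leaving out month 1 gave 0 for the interaction. Months 1 and 2 alone gave 0 over time in each arm. Their average irradiation difference called Slc1a2, at log2 -0.69 ± 0.14 (edgeR adjusted p = 0.00254), and not Lgr5 (0.214). Over all genes that average called 2052.

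Leaving out 1 library gave 0 to 3 calls at month 1, 0 to 0 at month 4, 0 to 1 for the average, 0 to 1 for the interaction and 0 to 2 in controls over months 4 to 12. The month 1 call of Slc1a2 and its interaction ended without control replicate 2 of month 1. Its call in controls over months 4 to 12 ended without replicate 2 of month 4, 9 or 12 or replicate 3 of month 12. Such a group then has 2 libraries, assumed to vary like those of other groups. The cause of these shifts was not tested. Over settings that leave out no single library, counts over all genes ranged from 116 to 2000 at month 1 (906 as reported), 13 to 3667 at month 2 (860), 0 to 2003 at month 4 (708), 0 to 901 at month 9 (326) and 0 to 163 at month 12 (0). They ranged from 4 to 2685 for the average (1035), 594 to 4416 for the interaction (2161), 1865 to 12029 and 1 to 12434 for time in controls (11486) and irradiated livers (11623), and 2 to 4699 and 19 to 1409 for months 4 to 12 (3986 and 576). Without irradiated replicate 2 of month 9 they reached 1439 at month 9 and 1732 in irradiated livers over months 4 to 12.

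Same-number libraries of the arms had r between -0.384 and 0.346, with 6 of 15 pairs above 0.1 and the own number best in 7 of 15, so the numbers were not read as pairs. With the replicate block the members called were 1 at month 1 and 1 at month 4, and no member's call changed in any comparison; at month 12, where all 3 pairs were above 0.1, the 6 libraries with the block gave 0. Upper quartile factors moved the median log2 difference of all genes at month 4 from 0.04 to 0.11, and Lgr5 was then log2 1.01 higher. Depth limits Rhbg most, at 2 to 34 counts per library.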

Other observations

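Oat had one partner closer than any other listed gene. Its neighbour Lhpp (chromosome 7, 132610638 to 132706420, plus strand), which encodes a phosphatase and stood in the list of further pericentral genes, lies 34239 bases from Oat on the other strand, with 2 annotated genes between them. The r of log2 CPM was 0.944 over the 30 libraries and 0.940 in deviations from group means, the highest of any member with a gene of the pericentral, periportal and Wnt lists in deviations. Lhpp was singled out after its values were seen, and what links the genes was not tested.

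Within groups, Glul followed Ctnnb1 (r = 0.787 in deviations) and Lhpp (0.759). Oat followed Aldh1a1 (0.796) and Rgn (0.787). Axin2 and Tbx3 ran opposite to Myc (-0.602 and -0.630). Cyp1a2 had its highest r with a periportal gene, Cps1 of the urea cycle (0.750). The median r with the 18 further pericentral genes and with the 16 periportal genes was 0.466 and 0.272 for Oat, 0.229 and 0.238 for Glul, 0.357 and 0.414 for Cyp2e1, and 0.233 and 0.002 for Tbx3. Lgr5 had negative medians with both, -0.182 and -0.163. These values describe 30 libraries that share depth and slice, and genes are not independent replicates.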
